A study of Mus musculus with 40 samples.

Results

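Axin2, Lef1, Tcf7, Sp5, Lgr5, Nkd1, Apcdd1, Ascl2, Znrf3 and Notum are genes that canonical Wnt/beta-catenin signalling switches on or that feed back on the pathway. They were taken from the count table by symbol, 1 row each, and make up 10 of its 26906 genes. All 10 passed the filter on low counts that left 16878 genes for testing. The 40 libraries came from aggregates of the mouse embryonic stem cell line CGR8 (strain 129), grown without serum in N2B27 with Activin-A, Fgf2 and KSR. In the XAV939 arm the aggregates were given XAV939 from 0 to 72 h, and the untreated arm was not. Each arm was sampled at days 3, 4, 5, 6 and 7 with 4 libraries per arm and day, so that day 3 closed the exposure and days 4 to 7 followed it. Titles in the untreated arm carry the words "no matrigel", whereas titles in the XAV939 arm are silent on matrigel, so a difference in matrix and the drug cannot be told apart from the labels. The labels name a single cell line and do not say whether the 4 libraries of a group came from separate cultures, so p-values measure the spread between these libraries, which may be technical.

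In the canonical pathway, Wnt ligands acting through Frizzled and Lrp receptors stop a destruction complex of Axin, Apc and Gsk3 from degrading beta-catenin, which then joins Tcf and Lef factors on the genes it activates. XAV939 inhibits the tankyrases, the enzymes that mark Axin for degradation, and thereby stabilises the destruction complex. In the mouse embryo the pathway is needed for the primitive streak and for the mesoderm and posterior body that form from it. Several of the genes it activates encode inhibitors of the pathway itself, which is why Axin2, Notum or Nkd1 are commonly read as reporters of its activity.

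The promoters of Sp5 and Axin2, both widely used as direct targets of beta-catenin, are shown because their fitted XAV939 effects at day 5, given below, were of very different size. Both are given 5′ to 3′ on their own strand, from 250 bases before to 50 bases after the start of the RefSeq transcript, on build GRCm38.p6, at chr2:70474673-70474972 (plus strand) for Sp5 and chr11:108920099-108920398 (plus strand) for Axin2.
Sp5: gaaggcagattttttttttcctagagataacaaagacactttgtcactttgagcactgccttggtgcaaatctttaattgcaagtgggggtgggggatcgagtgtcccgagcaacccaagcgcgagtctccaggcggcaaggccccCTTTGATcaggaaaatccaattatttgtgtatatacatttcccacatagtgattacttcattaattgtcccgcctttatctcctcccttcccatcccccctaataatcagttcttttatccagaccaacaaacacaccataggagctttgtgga
Axin2: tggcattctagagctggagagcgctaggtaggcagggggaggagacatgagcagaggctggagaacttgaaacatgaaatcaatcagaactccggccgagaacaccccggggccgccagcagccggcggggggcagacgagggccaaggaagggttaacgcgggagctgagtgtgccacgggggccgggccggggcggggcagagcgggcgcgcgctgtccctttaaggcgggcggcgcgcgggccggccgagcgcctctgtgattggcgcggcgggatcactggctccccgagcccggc
Capitals mark the core of the Tcf/Lef motif. The letters CTTTGAT and CTTTGAA, which differ in their last base, were searched on both strands. Sp5 held CTTTGAT, whose first base lay at position -104 from the transcript start, and Axin2 held neither string in this window. Across the 6 of the 10 genes with an entry in the RefSeq promoter table (10 promoters, with several starts for some genes) the Sp5 promoter was the only 1 with a match. Of all 32851 mouse promoters of this length in the table, 3.73% held CTTTGAT, 5.14% held CTTTGAA and 8.65% held either. A match describes letters in a window and not a bound site. The promoters of Lef1 and Ascl2, called lower at day 5 in a fit given below, held no match. Those of Tcf7 and Nkd1, not called in that fit, held none either. Any part of the motif in the day 5 effects was not tested.

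Total counts per library ran from 30197759 to 44086019 with a median of 35737200, with few counts for Ascl2 from day 4 on, for Sp5 and Notum at days 3 and 7 and for Lgr5 at day 3. Levels are given in CPM (counts scaled to the library size after its adjustment by a TMM factor). The summed level of 6 epiblast markers (Pou5f1, Fgf5, Nanog, Dnmt3b, Otx2 and Utf1) was 2845 to 3724 CPM in XAV939 libraries at day 3. In untreated libraries of that day it was 2792 to 3481 CPM. At day 7 it was 103 to 171 CPM and 116 to 219 CPM in the same order of arms. Library 1 of the untreated arm at day 4 stood apart: the summed level of 6 primitive streak markers (T, Mixl1, Eomes, Fgf8, Wnt3 and Mesp1) was 56.7 to 104 CPM in the 4 XAV939 libraries of that day, 1164 CPM in this untreated library and 106 to 179 CPM in untreated libraries 2 to 4. Results that rest on it are given with and without it. Libraries of the same number in the 2 arms of a day deviated together, so values from a fit with this pairing as a block within each day stand beside results whose call it changed. Because these are bulk libraries, fewer cells of a type and less RNA per cell cannot be told apart.

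The 10 genes followed several courses over the 5 days in both arms. Axin2, Nkd1, Lef1, Sp5 and Notum were low at day 3, had their highest group mean at day 5 and were lower again at day 7. Lgr5 had its highest mean at day 6. Tcf7 had its highest mean at day 3 and a lower one at each later day, Ascl2 was also highest at day 3, and Znrf3 stayed in a narrow range after day 3.

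**Figure D1:**
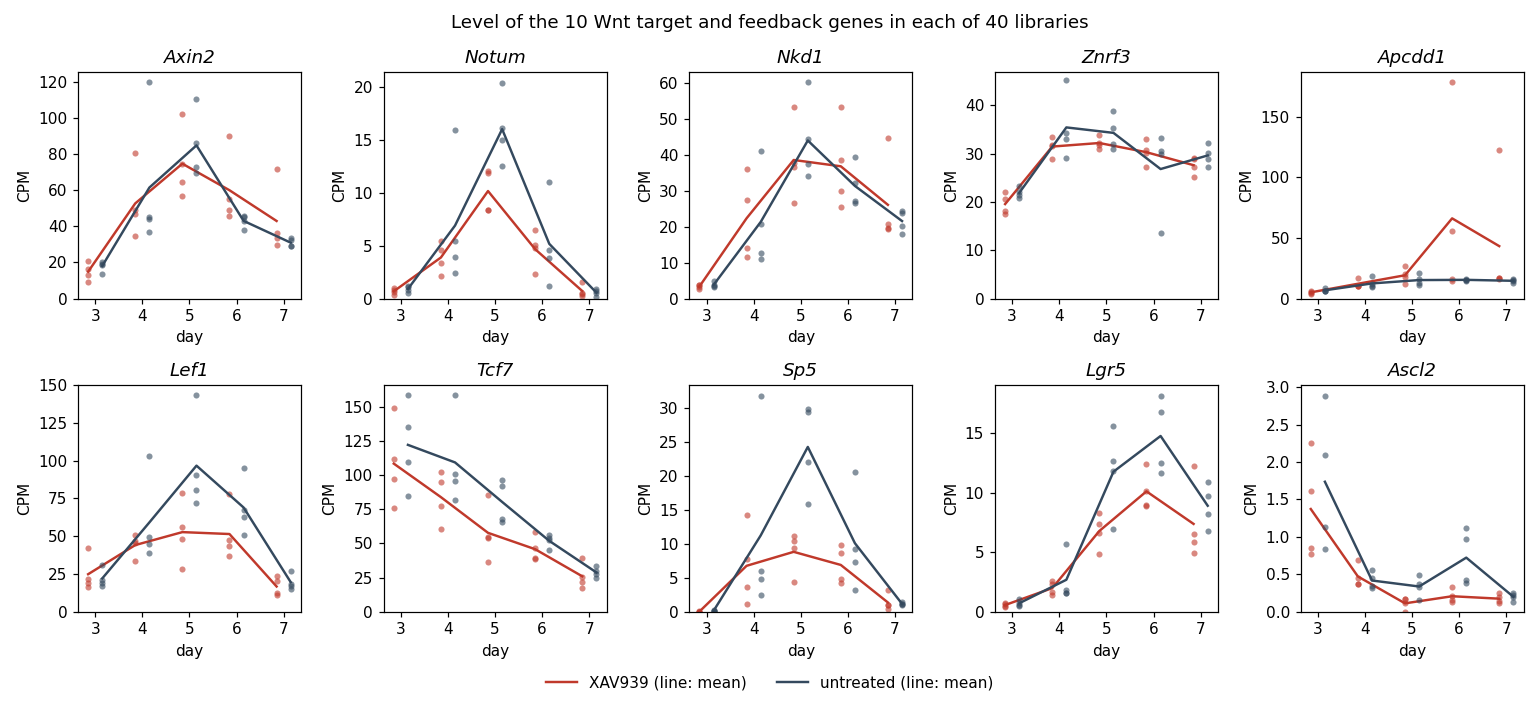
Level (CPM, y axis, linear, a scale of its own in each panel) against day (x axis) for the 10 genes. Points are the 4 libraries of each arm and day, XAV939 in red on the left and untreated in dark blue on the right, and lines join the group means. The Sp5 and Lef1 means part at day 5, where Sp5 averaged 8.84 CPM with XAV939 and 24.3 CPM without, and 2 XAV939 libraries carry the Apcdd1 mean at day 6.

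Among the feedback inhibitors, Axin2 encodes a scaffold of the destruction complex. In XAV939 libraries it averaged 14.9 ± 5.04, 52.7 ± 19.5, 74.7 ± 19.8, 59.98 ± 20.5 and 43.0 ± 19.5 CPM at days 3, 4, 5, 6 and 7 (SD, n = 4 each). In untreated libraries the means were 18.1 ± 2.97, 61.5 ± 39.2, 84.8 ± 18.5, 43.0 ± 3.71 and 30.9 ± 2.44 CPM. The rise between days 3 and 4 was shared by both arms, with no overlap between the days.

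Notum encodes a secreted enzyme that inactivates Wnt ligands by removing their lipid. Its mean was 0.688, 3.88, 10.2, 4.67 and 0.716 CPM over days 3 to 7 in XAV939 libraries and 0.907, 6.90, 16.02, 5.18 and 0.563 CPM in untreated libraries. Nkd1, which encodes an inhibitor that binds Dishevelled, averaged 3.36, 22.3, 38.5, 36.8 and 26.1 CPM over the same days with XAV939 and 3.80, 21.3, 43.95, 31.3 and 21.5 CPM without. Both genes had their highest mean at day 5, but the day 7 mean of Notum lay near its day 3 mean while that of Nkd1 lay well above it.

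Znrf3 encodes a ubiquitin ligase that removes Frizzled receptors from the cell surface. Its means over days 4 to 7 stayed between 27.6 and 32.2 CPM in XAV939 libraries and between 26.8 and 35.4 CPM in untreated libraries, after 19.6 and 21.9 CPM at day 3 in the same order of arms. Apcdd1, a membrane protein that inhibits Wnt signalling, averaged 5.11, 12.2, 19.2, 66.2 and 43.2 CPM over days 3 to 7 with XAV939 and 6.81, 12.5, 15.3, 15.4 and 14.7 CPM without. The high Apcdd1 means of the XAV939 arm at days 6 and 7 came from few libraries and are described with that day.

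The nuclear factors Lef1 and Tcf7, the DNA-binding partners of beta-catenin, had opposite courses up to day 5. Lef1 averaged 24.8, 44.1, 52.7, 51.4 and 16.7 CPM over days 3 to 7 in XAV939 libraries and 22.1, 59.1, 96.7, 69.0 and 19.6 CPM in untreated libraries. Tcf7 averaged 108, 83.9, 57.8, 45.8 and 26.0 CPM with XAV939 and 122, 109, 80.4, 51.9 and 28.8 CPM without. From day 4 to day 7 both had a lower mean with XAV939 at every day. The Lef1 difference at day 4 rested on untreated library 1, and without it the fitted log2 change was -0.01 ± 0.32 SE.

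Sp5 encodes a zinc finger transcription factor induced by Wnt signalling, and it was nearly absent at day 3. Its counts there were 1, 0, 3 and 0 in XAV939 libraries 1 to 4 and 6, 4, 3 and 7 in untreated libraries 1 to 4. Over days 4 to 7 it averaged 6.77, 8.84, 6.90 and 1.36 CPM with XAV939 and 11.3, 24.3, 10.1 and 1.16 CPM without. Lgr5, the R-spondin receptor and a target of the pathway in stem cells, averaged 0.563, 1.98, 6.79, 10.1 and 7.38 CPM over days 3 to 7 with XAV939 and 0.715, 2.69, 11.8, 14.8 and 8.91 CPM without. Ascl2, a basic helix-loop-helix factor that is a Wnt target in the intestine, had few counts from day 4 on, with means of 1.37, 0.471, 0.112, 0.207 and 0.174 CPM with XAV939 and 1.74, 0.417, 0.337, 0.723 and 0.200 CPM without.

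Per kilobase of annotated exon, the 10 genes can be ordered. At day 5 Tcf7 was highest with 22.0 CPM per kb in XAV939 libraries and 30.6 CPM per kb in untreated libraries, followed by Axin2 with 13.6 and 15.4 CPM per kb. Sp5 held the third place in untreated libraries with 11.6 CPM per kb, but its 4.21 CPM per kb in XAV939 libraries lay below Nkd1 (8.45) and Lef1 (5.996) and beside Notum (4.22) and Znrf3 (4.08) on the same scale. Apcdd1 with 1.49 and 1.18, Lgr5 with 0.661 and 1.15 and Ascl2 with 0.0691 and 0.208 CPM per kb (XAV939, then untreated) were the lowest in both arms. These are group means. Neighbours such as Sp5, Notum and Znrf3 in the XAV939 arm differ by less than the spread of Sp5 between its libraries (a SD of 3.06 CPM on a mean of 8.84 CPM).

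Between days 3 and 4, 7 of the 10 genes rose and Ascl2 fell, in both arms alike. By edgeR's quasi-likelihood test with Benjamini-Hochberg adjustment, called at adjusted p below 0.05, 8 of 10 changed in XAV939 libraries, where 38.0% of all genes tested did, and the same 8 of 10 in untreated libraries, where 32.7% did. By direction, 20.3% of all genes rose and 17.7% fell with XAV939, and 17.6% rose and 15.1% fell without. The median log2 change of the 10 was 1.53 with XAV939 and 1.59 without, beside 0.04 and 0.03 over all genes tested. Sp5 had the largest change of the 10, with 14.3, 3.72, 1.18 and 7.85 CPM in XAV939 libraries 1 to 4 at day 4, against 0.0266, 0, 0.0913 and 0 CPM at day 3 (fitted log2 change 7.64 ± 1.05 SE, adjusted p = 5.35e-07). This fitted value rests on 4 counts in all at day 3. In untreated libraries Sp5 had 31.9, 4.76, 2.45 and 5.96 CPM at day 4, against 0.169, 0.108, 0.0768 and 0.201 CPM at day 3 (log2 change 6.32 ± 0.85 SE, adjusted p = 5.13e-07). All day 4 libraries lay above all day 3 libraries in each arm. Nkd1 changed by 2.73 ± 0.36 on the log2 scale with XAV939 and 2.49 ± 0.36 without, Notum by 2.495 ± 0.56 and 2.92 ± 0.55, Axin2 by 1.82 ± 0.31 and 1.77 ± 0.31, Lgr5 by 1.80 ± 0.37 and 1.90 ± 0.36, Lef1 by 0.83 ± 0.33 and 1.42 ± 0.33, and Znrf3 by 0.69 ± 0.16 and 0.70 ± 0.16 (SE). The Ascl2 change was -1.53 ± 0.43 with XAV939 and -2.05 ± 0.44 without. The Lef1 rise with XAV939 (adjusted p = 0.0426) was the least secure: it missed the threshold without 1 of XAV939 libraries 1, 2 or 4 of day 3 or 1, 2 or 3 of day 4, at adjusted p of 0.0745 to 0.161. The others passed in each of their 8 fits with a library left out. Without untreated library 1 of day 4 the same 8 of 10 were called in the untreated arm, at smaller changes: Sp5 4.97 (adjusted p = 3.79e-06), Notum 2.10 (0.00202), Nkd1 1.96 (2.42e-05), Lgr5 1.23 (0.00322), Axin2 1.22 (0.000954), Lef1 1.01 (0.0161), Znrf3 0.55 (0.00809) and Ascl2 -1.94 (0.00228), with a median of 1.11 over the 10. In that fit 28.2% of all genes were called, with a median of 0.004.

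The difference in the day 3 to day 4 change between the arms was tested as an interaction, and no gene of the 10 and no gene in the table passed in edgeR (0.0% called), unblocked or with the pairing. No member had an unadjusted p under 0.05 in the unblocked test, and DESeq2 called none of the 10.

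Between days 4 and 5 Lgr5 rose in both arms. It had 4.83, 8.34, 6.58 and 7.40 CPM in XAV939 libraries at day 5, against 2.56, 1.65, 1.41 and 2.32 CPM at day 4 (log2 change 1.77 ± 0.34 SE, edgeR adjusted p = 0.000123). Untreated libraries held 11.8, 15.6, 12.7 and 6.97 CPM at day 5, against 5.70, 1.61, 1.84 and 1.597 CPM at day 4 (log2 change 2.13 ± 0.33 SE, adjusted p = 2.05e-05). In neither arm did the days overlap. With XAV939, Notum also rose (1.39 ± 0.51 SE, adjusted p = 0.0338) and Ascl2 fell by 2.004 ± 0.54 SE (adjusted p = 0.00428), so that 3 of 10 changed beside 31.0% of all genes. Without XAV939, Nkd1 rose (1.04 ± 0.33 SE, adjusted p = 0.0250) and 2 of 10 changed beside 18.7% of all genes. The untreated count turned on library 1 of day 4: without it 6 of the 10 rose, adding Axin2 (1.02, adjusted p = 0.00739), Lef1 (1.12, 0.0116), Sp5 (2.47, 0.00225) and Notum (2.04, 0.00309). The share of all genes called for this step without that library was not computed. The higher count is therefore not shown to be particular to the 10 genes. Nkd1 missed the threshold without untreated library 2, 3 or 4 of day 4 or 1 or 3 of day 5 (adjusted p 0.0503 to 0.116), which leaves Lgr5 alone, and Notum in the XAV939 arm missed it without XAV939 library 1, 2 or 3 of day 4 or 1 or 3 of day 5 (0.0546 at the lowest). Leaving out XAV939 library 1 of day 4 brought Nkd1 past the threshold in that arm (1.12, 0.0158), and leaving out library 4 of day 4 or 1 of day 5 did so for a fall of Tcf7 (-0.66, 0.0447, and -0.79, 0.0157). Other fits called more of the 10. With the replicate number as a term over all days, Axin2 (0.53 with XAV939, 0.57 without) and Nkd1 also rose in both arms, and 6 of 10 were called with XAV939 and 5 of 10 without, beside 36.9% and 24.1% of all genes. Without library 1 of every group, a choice made after seeing the data, Axin2, Nkd1 and Notum joined Lgr5 in rising in both arms, with 7 of 10 called with XAV939 and 5 of 10 without, beside 31.9% and 18.7% of all genes.

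After day 5 the courses of the 10 genes differed. The Lgr5 mean was still higher at day 6 than at day 5, at 10.1 against 6.79 CPM with XAV939 and 14.8 against 11.8 CPM without. Between days 5 and 6 Axin2 and Notum fell in untreated libraries, Axin2 to 43.0 CPM at day 6 against 84.8 CPM at day 5 (-0.98 ± 0.30 log2, adjusted p = 0.0193) and Notum to 5.18 CPM against 16.02 CPM (-1.63 ± 0.50, adjusted p = 0.0182), 2 of 10 beside 19.8% of all genes changed and 8.72% fallen. Neither passed in XAV939 libraries (Axin2 -0.32 ± 0.30, Notum -1.12 ± 0.50 with day 6 wholly below day 5), where Apcdd1 alone was called, 1 of 10 beside 17.0% of all genes. The interaction for this step was not significant for Axin2 (a log2 difference between arms of 0.66, 95% interval -0.20 to 1.53) or Notum (0.51, -0.91 to 1.93). The Axin2 fall missed the threshold without untreated library 1 of day 5 (adjusted p = 0.0649), and the Notum fall without untreated library 1 or 2 of day 6 (0.0723 and 0.0533). In the fit of the 8 libraries compared, Notum was called in XAV939 libraries (-1.11, adjusted p = 0.0196) and missed the threshold in untreated libraries (-1.62, 0.0790), and Apcdd1 missed it with XAV939 (1.79, 0.1001). Sp5 in untreated libraries passed without library 3 of day 6 (-1.88, 0.0367) and Znrf3 without library 4 of day 6 (-0.47, 0.0402).

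Between days 6 and 7 Lef1, Tcf7, Sp5 and Notum fell in both arms, and Ascl2 in untreated libraries. That was 4 of 10 with XAV939, where 7.16% of all genes changed and 2.96% fell, and 5 of 10 without, where 12.2% changed and 7.02% fell. Notum had the largest change of the 10 in both arms: 1.58, 0.465, 0.537 and 0.280 CPM in XAV939 libraries at day 7, against 4.79, 2.37, 6.51 and 5.03 CPM at day 6 (-2.70 ± 0.56 log2, edgeR adjusted p = 0.00163). In untreated libraries Notum had 0.179, 0.512, 0.890 and 0.672 CPM at day 7, against 1.23, 3.80, 11.1 and 4.63 CPM at day 6 (-3.22 ± 0.57, adjusted p = 0.000311). No day 7 library reached a day 6 library of its arm. The log2 change of Sp5 was -2.34 ± 0.65 with XAV939 and -3.12 ± 0.67 without, that of Lef1 -1.62 ± 0.33 and -1.82 ± 0.33, and that of Tcf7 -0.82 ± 0.25 and -0.85 ± 0.25 (SE). The calls for Tcf7 and Sp5 with XAV939 were lost without XAV939 library 3 of day 6 or library 2, 3 or 4 of day 7 (adjusted p 0.0621 to 0.156 for Tcf7, 0.0573 to 0.0880 for Sp5), and Tcf7 also without library 1 of day 6 (0.113). In untreated libraries Tcf7 missed the threshold without library 3 of day 6 or library 2 or 4 of day 7 (0.0541 to 0.0610). Apcdd1 fell in the XAV939 arm only in the fit without library 1 of day 7 (-1.98, adjusted p = 0.00773).

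XAV939 against untreated was compared within each day. At day 3, as the exposure ended, none of the 10 genes passed the test, and 0.00592% of all genes tested did. The log2 change was negative for 9 of the 10, with a median of -0.31 beside -0.02 over all genes tested, and no member had an unadjusted p under 0.05. Apcdd1, Ascl2 and Notum were lower with XAV939 than in the untreated library of the same number in 4 of 4 pairs, 3 of 10 beside 10% of all genes (1691 of 16878). Axin2, the common reporter gene, had 16.5, 21.0, 12.9 and 9.15 CPM in XAV939 libraries and 20.5, 19.3, 13.8 and 18.7 CPM in untreated libraries (-0.28, 95% interval -0.90 to 0.35). The groups overlapped. Sp5 gave the most negative value (-2.05 ± 1.54 SE) on the few counts listed above.

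At day 4 none of the 10 passed either, beside 0.0178% of all genes, and none had an unadjusted p under 0.05. The median log2 change was -0.30 with 8 of 10 negative, beside a median of 0.00 over all genes tested. Notum was the most negative at -0.83 ± 0.50 SE, and Sp5 followed at -0.73 ± 0.60 SE. In pairs of libraries of the same number, Znrf3 alone of the 10 was lower with XAV939 in 4 of 4, beside 10.2% of all genes. Untreated library 1 was the highest of its group for 9 of the 10 genes: Axin2 stood at 120 CPM there against 36.8 to 45.1 CPM in libraries 2 to 4, Lef1 at 103 against 39.0 to 49.3 CPM, Sp5 at 31.9 against 2.45 to 5.96 CPM, and Notum at 15.9 against 2.39 to 5.40 CPM. T, the brachyury gene of the primitive streak, stood at 2.59 to 7.80 CPM in XAV939 libraries, at 550 CPM in untreated library 1 and at 11.8 to 24.6 CPM in untreated libraries 2 to 4. Without this library the day 4 values changed: 4 of the 10 were negative instead of 8, the median was 0.14, and Axin2 (0.33 ± 0.28 SE), Sp5 (0.62 ± 0.56), Lgr5 (0.23 ± 0.30) and Apcdd1 (0.20 ± 0.58) were positive, where all libraries had given -0.22, -0.73, -0.44 and -0.03. Notum lay at -0.01 ± 0.49 SE. None of the 10 passed in that fit either (adjusted p = 1 for each), and no gene in the table did. Without that library Lef1 lay at -0.01 ± 0.32 SE, Znrf3 at -0.03 ± 0.16 and Tcf7 at -0.15 ± 0.25. The negative day 4 values of Axin2, Sp5, Lgr5 and Apcdd1 rested on untreated library 1, and so did nearly all of that of Notum. The fit without it kept its partner, XAV939 library 1, which was the highest of its group for 6 of the 10 genes. Axin2 stood at 80.4 CPM there and at 34.7 to 48.8 CPM in XAV939 libraries 2 to 4, beside 36.8 to 45.1 CPM in untreated libraries 2 to 4. Sp5 stood at 14.3, 1.18 to 7.85 and 2.45 to 5.96 CPM in the same order. The positive values of that fit thus include a library without its partner. The part that the streak cells of untreated library 1 had in the day 4 values of the 10 genes was not tested.

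**Figure D2:**
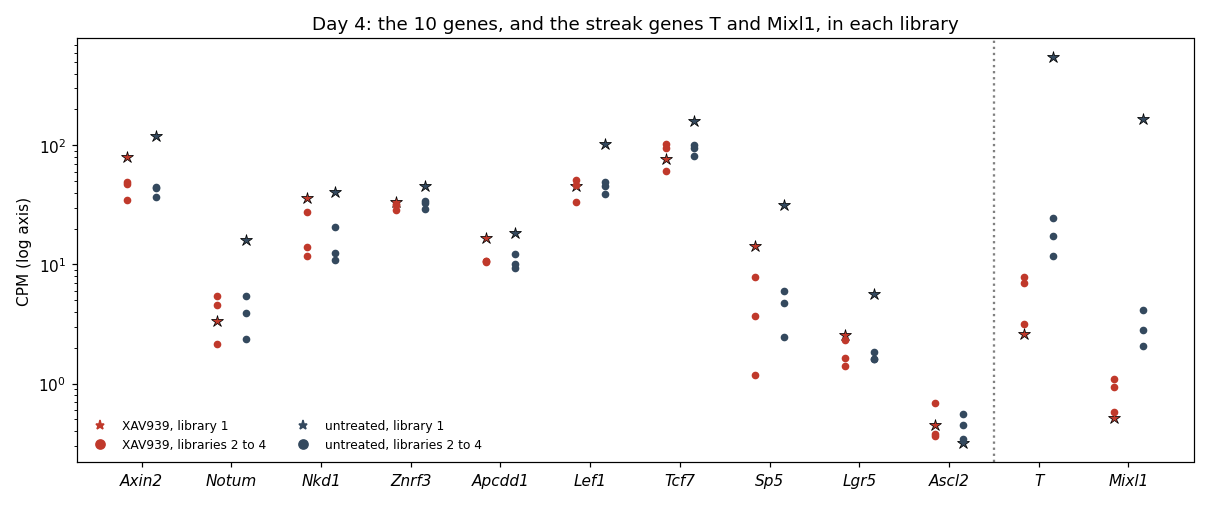
Level at day 4 (CPM, log axis) of the 10 genes and, right of the dotted line, of T and Mixl1. XAV939 libraries are red and on the left of each pair, untreated libraries dark blue and on the right, and library 1 of each arm is a star. The untreated star is the highest untreated point for 9 of the 10 genes and for both streak genes.

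At day 5 Sp5, Lef1, Lgr5 and Ascl2 were lower with XAV939 in the fit that pairs libraries of the same number. The log2 change was negative for 9 of the 10 with a median of -0.57, beside 0.01 over all genes tested. The unblocked edgeR fit called none of the 10, beside 2.34% of all genes, though 4 of them had an unadjusted p under 0.05, and DESeq2 called none. With the libraries of the same number paired within the day, Lef1, Sp5, Lgr5 and Ascl2 were called lower, 4 of 10 beside 4.41% of all genes called lower and 7.35% called in either direction.

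Sp5 had 11.2, 10.4, 9.39 and 4.38 CPM in XAV939 libraries 1 to 4, against 29.9, 29.5, 22.0 and 15.8 CPM in untreated libraries 1 to 4. Every XAV939 library was below every untreated library. The log2 change was -1.46 ± 0.60 SE unblocked (adjusted p = 0.260) and -1.50 ± 0.37 SE with the pairing (2.82-fold lower, 95% interval -2.27 to -0.72, adjusted p = 0.0174). Notum, with 11.8, 8.40, 12.1 and 8.36 CPM in XAV939 libraries against 20.4, 12.5, 16.2 and 14.97 CPM in untreated libraries, also did not overlap between arms, but gave -0.66 ± 0.49 SE and missed the threshold (adjusted p = 0.693 unblocked and 0.405 with the pairing). Sp5 and Notum were 2 of 10 wholly lower with XAV939, beside 4.02% of all genes.

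Lef1 had 78.3, 48.2, 55.9 and 28.5 CPM in XAV939 libraries, against 143, 80.5, 90.8 and 72.0 CPM in untreated libraries. XAV939 library 1 lay above untreated library 4, so that the arms overlapped, but each library was below its partner. The log2 change was -0.87 ± 0.32 SE unblocked (adjusted p = 0.178) and -0.91 ± 0.19 SE with the pairing (1.88-fold lower, adjusted p = 0.00587).

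Tcf7, the other Tcf/Lef factor among the 10, had 85.8, 54.5, 54.3 and 36.5 CPM with XAV939 and 96.2, 92.0, 67.7 and 65.7 CPM without, and was lower in 4 of 4 pairs. Its change of -0.52 ± 0.17 SE with the pairing missed the threshold (adjusted p = 0.0676). Lgr5 had 4.83, 8.34, 6.58 and 7.40 CPM in XAV939 libraries, against 11.8, 15.6, 12.7 and 6.97 CPM in untreated libraries, and was lower in pairs 1 to 3 and slightly higher in pair 4. The log2 change was -0.79 ± 0.32 SE unblocked (adjusted p = 0.231) and -0.77 ± 0.23 SE with the pairing (adjusted p = 0.0453). Ascl2 had counts of only 6, 6, 4 and 0 in XAV939 libraries, against 11, 21, 13 and 6 in untreated libraries. Its change was -1.53 ± 0.55 SE unblocked (adjusted p = 0.156) and -1.58 ± 0.34 SE with the pairing (adjusted p = 0.00650).

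These 4 calls depended on the fit. Over the alternative fits the adjusted p ran from 0.00332 to 0.277 for Lef1 (called in 3 of 9), 0.00269 to 0.416 for Sp5 (2 of 9), 0.0453 to 0.289 for Lgr5 (1 of 9) and 0.00650 to 0.318 for Ascl2 (3 of 8). Without library 1 of every group, the paired fit called Lef1, Tcf7, Sp5, Ascl2 and Notum lower at day 5. In that fit 5.71% of all genes were called lower and 9.1% in either direction.

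**Figure D3:**
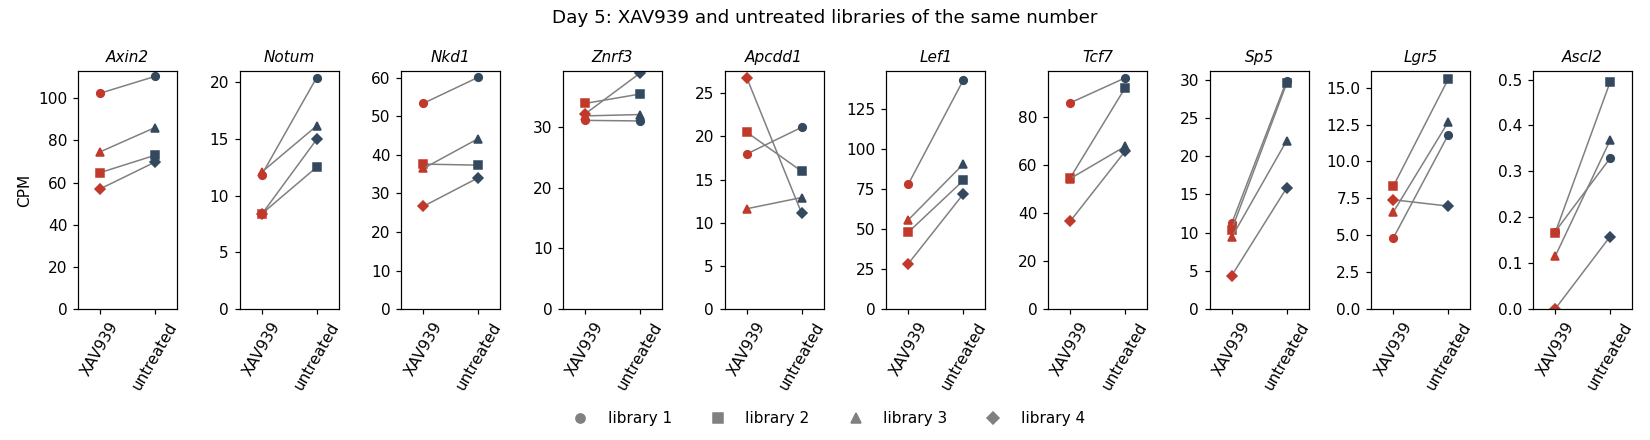
Level at day 5 (CPM, linear axes from 0, a scale of its own in each panel) of the 10 genes in XAV939 libraries (red, left) and untreated libraries (dark blue, right). Grey lines join libraries of the same number, and symbols give the number. Lines for Axin2, Notum, Lef1, Tcf7, Sp5 and Ascl2 all slope up to the untreated side, 6 of 10 genes.

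Axin2, Notum, Lef1, Tcf7, Sp5 and Ascl2 were lower with XAV939 in 4 of 4 pairs at day 5, 6 of 10 beside 14.2% of all genes. The size differed among them. Axin2 had 102, 64.7, 74.6 and 57.0 CPM in XAV939 libraries, against 110, 73.0, 86.1 and 69.7 CPM in untreated libraries, a log2 change of -0.19 ± 0.17 SE with the pairing (95% interval -0.56 to 0.17, adjusted p = 0.572). Nkd1 (-0.20, -0.57 to 0.18) and Znrf3 (-0.09, -0.36 to 0.19) were as near to 0. Apcdd1 was the only member with a positive value (0.31 ± 0.46 SE). The intervals of Axin2, Nkd1 and Znrf3 lay above the fitted value of Sp5. The difference between genes was not tested.

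Markers of the cell types that form in the same days also differed at day 5. The 5 presomitic mesoderm markers (Tbx6, Msgn1, Dll3, Hes7 and Rspo3) summed to 25.1 to 54.3 CPM in XAV939 libraries and 54.9 to 291 CPM in untreated libraries, with 4 of 5 called lower unblocked and 5 of 5 with the pairing. The 6 primitive streak markers summed to 150 to 441 CPM with XAV939 and 484 to 805 CPM without, with none called unblocked and 2 with the pairing. No marker of the 2 lists was at 0 in any library of that day. The 5 somite markers (Tcf15, Uncx, Foxc2, Aldh1a2 and Meox1) summed to 1.17 to 5.88 CPM with XAV939 and 6.24 to 242 CPM without, with 3 of 5 called lower in both fits and 1 marker at 0 in each of XAV939 libraries 2 and 4. The 5 endoderm and gut markers (Sox17, Foxa2, Krt8, Cldn6 and Epcam) summed to 68.8 to 146 CPM with XAV939 and 197 to 381 CPM without, with 3 of 5 called lower unblocked and 4 of 5 with the pairing. Neural progenitor markers (Sox1, Sox2, Pax6, Sox3, Pou3f2 and Hes5) summed to 133 to 247 CPM with XAV939 and 62.2 to 121 CPM without. The part of these cells in the lower Sp5, Lef1, Lgr5 and Ascl2 levels was not tested.

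At day 6 Ascl2 was lower and Apcdd1 higher with XAV939, 2 of 10 called by edgeR beside 4.34% of all genes (1.39% higher, 2.95% lower). The other 8 were divided in sign, and the median log2 change of the 10 was -0.16 beside -0.01 over all genes tested. Ascl2 had counts of 6, 12, 8 and 5 in XAV939 libraries 1 to 4 (0.151, 0.330, 0.216 and 0.130 CPM), against 16, 39, 30 and 13 in untreated libraries 1 to 4 (0.426, 1.11, 0.969 and 0.381 CPM). All 4 XAV939 libraries were below all 4 untreated libraries, as for 3.82% of all genes. The log2 change was -1.79 ± 0.48 SE (3.46-fold lower, adjusted p = 0.0226) and -1.76 ± 0.28 SE with the pairing (adjusted p = 0.000326), where it was the only member called beside 10.2% of all genes. The unblocked call was lost without XAV939 library 1 or 4 or untreated library 2 or 3 (log2 change -1.66, -1.62, -1.50 and -1.61, adjusted p 0.0978, 0.105, 0.107 and 0.0861). Marker sums of other cell types were also apart at day 6. The 6 epiblast markers summed to 184 to 273 CPM in XAV939 libraries and 311 to 629 CPM in untreated libraries, and the 5 endoderm and gut markers to 147 to 252 CPM with XAV939 and 285 to 860 CPM without, neither with an overlap between arms or a marker at 0. The 6 primitive streak markers summed to 61.2 to 119 CPM with XAV939 and 103 to 259 CPM without. The part of these cells in the Ascl2 values was not tested.

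Apcdd1 had 178, 16.3, 14.6 and 55.5 CPM in XAV939 libraries 1 to 4 at day 6, against 16.5, 15.4, 15.1 and 14.8 CPM in untreated libraries. Libraries 1 and 4 carried the difference, and XAV939 library 3 was below all untreated libraries. The unblocked log2 change was 2.10 ± 0.54 SE (4.28-fold higher, adjusted p = 0.0184). With the pairing it was 1.33 ± 0.50 SE and missed the threshold (adjusted p = 0.1001), and without XAV939 library 1 it was 0.90 (adjusted p = 0.479). It also missed the threshold without untreated library 2 or 3, at an unchanged 2.10 (adjusted p = 0.0545 and 0.0562), and over the alternative fits its adjusted p ran from 0.00485 to 0.267. The day 5 to day 6 rise of Apcdd1 in the XAV939 arm, 1.78 ± 0.54 SE (adjusted p = 0.0183), likewise missed it without XAV939 library 1 of day 6 (0.58, adjusted p = 0.509) or library 3 of day 5 (1.61, 0.0768).

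**Figure D4:**
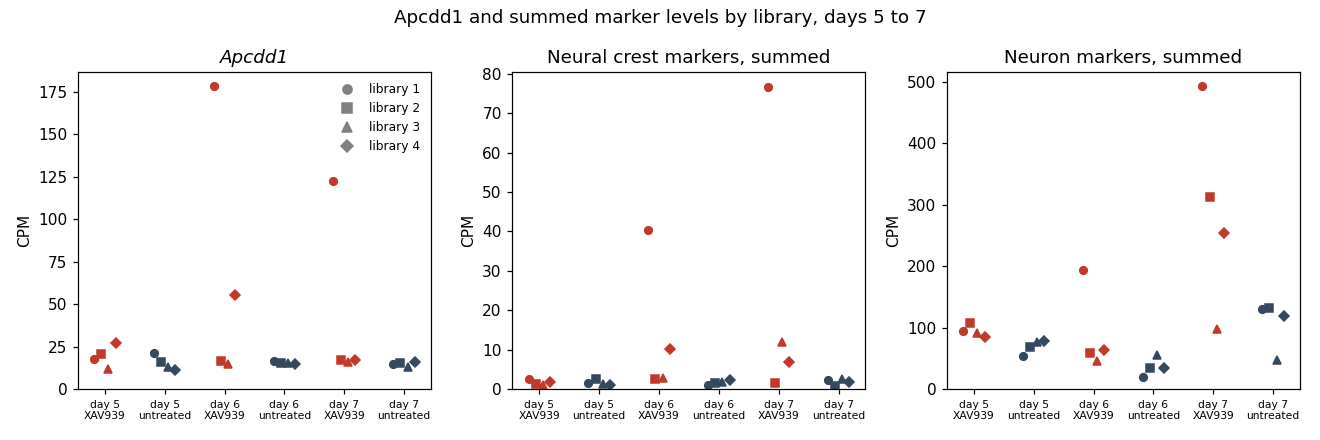
Apcdd1 (left), the summed level of the neural crest markers Sox10, Foxd3 and Tfap2b (middle) and of the neuron markers Tubb3, Elavl3, Dcx and Stmn2 (right), in CPM on linear axes from 0, for each library of days 5, 6 and 7. XAV939 groups are red and stand left of their untreated groups in dark blue, and symbols give the library number. XAV939 library 1 is the highest point of days 6 and 7 in all 3 panels.

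Neural crest and neuron markers were highest in the XAV939 library with the most Apcdd1 at days 6 and 7. They did not follow Apcdd1 in every library. The 3 neural crest markers summed to 40.4, 2.51, 2.70 and 10.1 CPM in XAV939 libraries 1 to 4 at day 6 and to 1.07 to 2.198 CPM in untreated libraries, with no marker at 0 in any library. The 4 neuron markers summed to 193, 59.0, 45.4 and 63.9 CPM in XAV939 libraries and to 18.8 to 56.1 CPM in untreated libraries. At day 7 Apcdd1 had 123, 17.1, 16.1 and 17.3 CPM in XAV939 libraries and 14.4, 15.1, 13.2 and 15.9 CPM in untreated libraries. Neural crest markers summed there to 76.7, 1.53, 12.02 and 6.96 CPM in XAV939 libraries and to 0.805 to 2.64 CPM in untreated libraries, with 1 marker at 0 in 3 of the untreated libraries. Neuron markers summed at day 7 to 492, 312, 97.9 and 254 CPM in XAV939 libraries 1 to 4 and to 47.2 to 132 CPM in untreated libraries. XAV939 libraries 2 and 4 thus had more neuron marker RNA than any untreated library, with Apcdd1 at only 17.1 and 17.3 CPM. XAV939 library 1 had both the most Apcdd1 and the most neural crest marker RNA on each day, whereas at day 7 library 3, second in those markers, had the least Apcdd1 of its group. The part of those cells in the Apcdd1 values was not tested.

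No other member was called at day 6 with all libraries in the fit. Lef1 and Lgr5 were lower with XAV939 in 4 of 4 pairs, with Ascl2 making 3 of 10 beside 13.3% of all genes, and Axin2 was higher in 4 of 4, 1 of 10 beside 12.5% of all genes. Axin2 had 90.1, 45.4, 49.0 and 55.4 CPM in XAV939 libraries, against 45.9, 43.0, 37.8 and 45.4 CPM in untreated libraries (0.43 ± 0.18 SE with the pairing, adjusted p = 0.136). Only the first of these XAV939 libraries was far from the untreated range. Lef1 (-0.45 ± 0.19, adjusted p = 0.148) and Lgr5 (-0.53 ± 0.22, adjusted p = 0.142) also missed the threshold with the pairing. Without library 1 of every group, the paired fit called Lef1 (-0.56, adjusted p = 0.0324), Sp5 (-0.99, 0.0209) and Ascl2 lower at day 6, beside 5.22% of all genes called lower.

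At day 7 none of the 10 passed, beside 0.00592% of all genes unblocked and 2.26% with the pairing, and the log2 changes were 5 positive and 5 negative with a median of 0.07. Apcdd1 alone had an unadjusted p under 0.05 (1.56 ± 0.54 SE, adjusted p = 0.261). Its lowest XAV939 library stood just above its highest untreated library, 1 of 10 wholly higher beside 2.09% of all genes. Axin2 and Apcdd1 were higher with XAV939 in 4 of 4 pairs, 2 of 10 beside 12.7% of all genes. XAV939 library 1 was the highest of its group for 8 of the 10 genes: Axin2 was at 71.9 CPM there and at 29.9 to 36.4 CPM in libraries 2 to 4, and Nkd1 at 44.8 CPM and at 19.2 to 20.7 CPM.

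**Figure D5:**
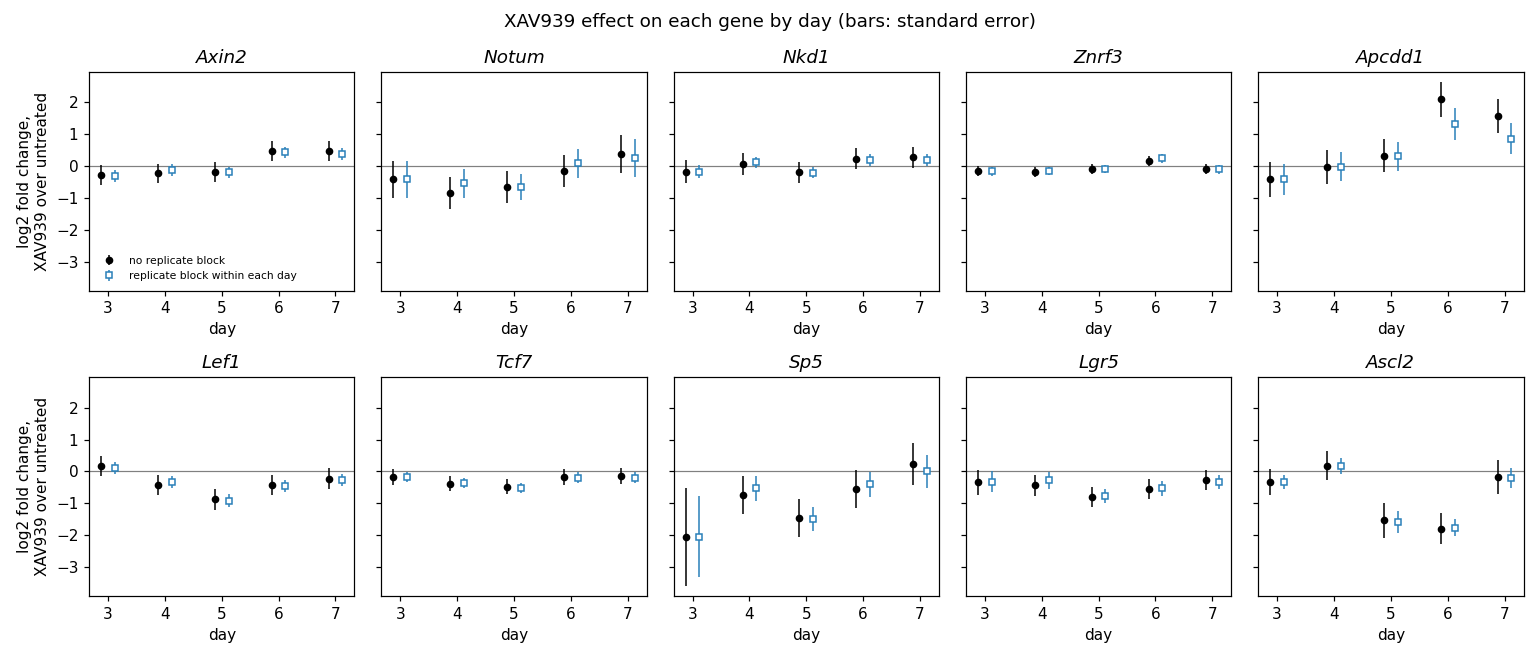
Log2 fold change of XAV939 over untreated (y axis) by day (x axis) for the 10 genes, with standard error bars. Filled circles are from the fit with no replicate block and open squares from the fit with a block of same-numbered libraries within each day. Sp5, Lef1, Lgr5 and Ascl2 lie below 0 at day 5 with shorter bars in the blocked fit, and the Apcdd1 value at day 6 is smaller with the block (1.33) than without (2.10).

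Over the 5 days together, an F test of any XAV939 effect called Apcdd1 (adjusted p = 0.0363) and Ascl2 (adjusted p = 0.0466), 2 of 10 beside 5.8% of all genes. With the pairing it called Lef1 (adjusted p = 0.0128) and Ascl2 (adjusted p = 0.000649) and no longer Apcdd1 (adjusted p = 0.259), beside 13.4% of all genes. The unblocked calls were close to the threshold: Apcdd1 kept its call in 29 of the 40 fits that left out a library and Ascl2 in 11 of 40, with adjusted p up to 0.146 and 0.131, and without XAV939 library 1 of day 6 neither was called. The Apcdd1 call was lost without untreated library 2 of day 5, any untreated library of days 6 and 7, or XAV939 library 1 or 4 of day 6. Whether the effect of XAV939 differed between successive days, or between days 3 and 7, was tested as an interaction. None of the 10 passed for any of these 5 contrasts by edgeR, where 0.0% of all genes did unblocked, or by DESeq2. With the pairing none of the 10 passed either, beside 0.486% of all genes (82) between days 4 and 5, 0.0652% (11) between days 5 and 6, 0.0533% (9) between days 3 and 7 and 0.0% for the other steps. The smallest adjusted p of a member in that fit was 0.0724, for Ascl2 between days 4 and 5 (-1.75 ± 0.43 SE). Unblocked, Ascl2 had an unadjusted p under 0.05 between days 4 and 5 (-1.70 ± 0.71 SE) and between days 6 and 7 (1.61 ± 0.72 SE), and Apcdd1 between days 5 and 6 (1.77 ± 0.75 SE) and days 3 and 7 (1.97 ± 0.76 SE). The day 5 effect of the 10 genes was therefore not shown to differ from that of other days.

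Other genes of the pathway were called at days 5, 6 and 7 in numbers that depended on the fit. Of 16 further targets and feedback genes, T alone was called lower at day 4 (-4.87 ± 0.83 SE, adjusted p = 0.0110), a call lost without untreated library 1 (-1.80 ± 0.49 SE, adjusted p = 1) and in the fit with the pairing. Both of those fits called 0 of all genes at day 4. T stood at 11.8 to 24.6 CPM in untreated libraries 2 to 4 and at 2.59 to 7.80 CPM in XAV939 libraries. At day 5, 1 of the 16 was called lower unblocked, Nkd2, the relative of Nkd1, with 5.32 ± 0.322 CPM in XAV939 libraries and 11.8 ± 9.84 CPM in untreated libraries (-1.14 ± 0.28 SE, adjusted p = 0.0228), beside 1.43% of all genes called lower. With the pairing Nkd2 missed the threshold (adjusted p = 0.0535) and 4 others of the 16 were called lower, beside 4.41% of all genes: the Wnt inhibitor Dkk1 (-1.12 ± 0.19 SE), the presomitic factor Msgn1 (-2.89 ± 0.64) and the caudal factors Cdx1 (-1.83 ± 0.48) and Cdx4 (-1.92 ± 0.39). At day 6 Bambi, a pseudoreceptor of the TGF-beta family and Wnt target, had 9.03 ± 1.27 CPM with XAV939 and 20.1 ± 7.11 CPM without (-1.15 ± 0.21 SE, adjusted p = 0.000914), and Tcf7l2, a further Tcf factor, 20.7 ± 3.84 and 32.2 ± 6.18 CPM (-0.64 ± 0.16 SE, adjusted p = 0.0130). These were 2 of 16 lower, and 4 of 16 with the pairing, which added Rnf43, the ligase related to Znrf3, and Dkk1, beside 5.9% of all genes called lower in that fit. None was called at days 3 and 7 unblocked, and with the pairing 3 of 16 were lower at day 7, beside 1.32% of all genes. The median of the 16 was -0.57 at day 5 and -0.63 at day 6.

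Upstream of the 10 genes, 9 Wnt ligands held 1 lower call at day 5, Wnt2b, with 0.783 ± 0.378 CPM in XAV939 libraries and 5.13 ± 4.08 CPM in untreated libraries (-2.70 ± 0.56 SE, adjusted p = 0.00711). The pairing added Wnt5a at day 5, and it called Wnt2b lower at day 6 as well (-1.62 ± 0.45 SE, adjusted p = 0.0259). Of 4 R-spondins, the ligands of Lgr5, Rspo3 was lower at day 5 with 20.6 ± 5.80 against 54.6 ± 27.2 CPM (-1.41 ± 0.38 SE, adjusted p = 0.0376). Among 14 receptors and co-receptors, Fzd5 and Lgr6 were lower at day 5 and Fzd5 at day 6 (-1.65 ± 0.37 SE, adjusted p = 0.00666). With the pairing Fzd5 alone was lower at day 5 (Lgr6 adjusted p = 0.0526) and Fzd3 and Fzd9 were higher, so that 3 of 14 changed beside 7.35% of all genes. At day 6 Fzd5 and Fzd8 were lower and Fzd3, Fzd9 and Lgr4 higher in that fit, beside 10.2% of all genes changed. Of 12 nuclear partners of beta-catenin only Tcf7l2 was called, at day 6. The 7 genes of the tankyrases and the destruction complex (Tnks, Tnks2, Axin1, Apc, Gsk3a, Gsk3b and Csnk1a1) gave no call at any day, and 0 of the 7 had an unadjusted p under 0.05 at any day.

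The 10 genes were compared with 11909 genes that averaged at least 5 CPM in some group, by Pearson correlation over the 10 group means of log2 CPM. All of these points share the arms, the days and their libraries, so the values describe likeness of course. The closest to Tcf7 was Nodal (r = 0.994), a signalling ligand of the epiblast and node. Hotairm1 and Hoxb1, a non-coding RNA and a homeobox gene of the anterior Hox clusters, were closest to Lgr5 (r = 0.991 each). Tnfrsf22 was closest to Axin2 (0.981), Tmem121b to Nkd1 (0.995), Wasf1 to Sp5 (0.983), Nme5 to Notum (0.990), Nhlrc2 to Znrf3 (0.990), Acsl6 to Apcdd1 (0.985), Higd2a to Lef1 (0.978) and Lgals9 to Ascl2 (0.978). Among the 10 themselves, Axin2 and Sp5 were the most alike over the group means (r = 0.965). Within groups, the deviations of the 40 libraries from their group means were most alike for Axin2 and Nkd1 (r = 0.839) and for Sp5 and Nkd1 (r = 0.825), and Ascl2 ran against Nkd1 over the group means (r = -0.819).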

How the data were processed

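PolyA RNA from 300 ng per sample was made into stranded TruSeq libraries and sequenced as paired reads of 81 bases at a target of 36 M reads, per the labels' protocols. The authors deposited raw counts per gene. The submitters' processing notes name bcl2fastq 2.20.0 and build mm10; of the aligner, counting program, annotation and strand setting no account is given in the labels. Without the strand setting, reads of Axin2, Lef1, Tcf7, Lgr5 and Notum cannot be told apart from those of annotated genes that overlap them on the other strand. Nkd1, Lef1 and Tcf7 also overlap annotated genes on their own strand, which a strand setting would not separate. Gene lengths and overlaps came from GENCODE M21 (GRCm38).

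Counts as deposited were fitted in edgeR 4.0.16 (R 4.3.3) with TMM scaling, filterByExpr (minimum count 10, minimum total 15), 1 mean per group over 40 libraries and robust quasi-likelihood tests, adjusted by Benjamini-Hochberg over 16878 genes and called below 0.05; the residual degrees of freedom were 30. CPM are counts scaled to the library size after its adjustment by the TMM factor. For log2 CPM a prior count of 2 was used. DESeq2 1.42.0 was an alternative, with other filters, scalings, blocks and left-out libraries. Within a day, libraries of the same number deviated together in all 20 pairs of arms (correlation 0.145 to 0.523), and 39 of 40 libraries correlated best with their own number, so the numbers were taken as pairs; no label says what they mark. No 2 libraries of a group agreed within counting noise. On counts simulated for the day 5 comparison, the unblocked fit was checked before use. The simulated counts held no pairing, so the paired fit was not checked. The 10 genes and all lists were chosen with earlier results of these data known. Named were the 10 genes, the 3 genes most like each, of which the closest are given, and, in each list, those with the smallest adjusted p. Promoters are from RefSeq, matched by symbol for 6 of the 10; those of Lgr5, Apcdd1, Znrf3 and Notum are not used here.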

Additional observations from a re-analysis of the deposited data

Results flagged for a closer look

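In 10 of the 100 sets of 4 libraries (10 genes in 10 groups), the gap between the highest or lowest library and its nearest neighbour took up an unusually large part of the group's range. Chance alone marks about 1 in 20 such sets, and the genes share libraries. In 9 of the 10 sets the library that stood apart was library 1. Untreated library 1 of day 4 accounted for 4: Axin2 was at 120.0 CPM against 36.8 to 45.1 CPM in the other 3 libraries, Lef1 at 103.0 against 39.0 to 49.3 CPM, Sp5 at 31.9 against 2.45 to 5.96 CPM, and Lgr5 at 5.7 against 1.6 to 1.84 CPM. XAV939 library 1 of day 7 accounted for 3: Axin2 at 71.9 against 29.9 to 36.4 CPM, Nkd1 at 44.8 against 19.2 to 20.7 CPM, and Apcdd1 at 123.0 against 16.1 to 17.3 CPM. Apcdd1 was also at 16.8 CPM in XAV939 library 1 of day 4, against 10.6 to 10.7 CPM in the other 3, and at 9.01 CPM in untreated library 1 of day 3, against 5.87 to 6.23 CPM. The exception was Znrf3 in untreated library 3 of day 6, which was the lowest of its group at 13.6 CPM against 30.02 to 33.1 CPM.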

How the results depend on the processing

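Of 3711 comparisons of 190 results on single genes with their alternatives, 3559 kept direction and side of the threshold, 103 fell short of it, 49 came past it and 0 reversed; 165 results that were not called changed sign. Under DESeq2 and under relative log expression size factors every count of called genes stayed within 1.5 times. With no filter on low counts the F test over 5 days called 0 genes instead of 2. A minimum of 5 CPM in 4 libraries removed Ascl2, leaving 1 gene for the F test and 1 for the day 6 effect. With the replicate number as a term, the day 5 effect called 2 instead of 0, the day 4 to 5 change 6 instead of 3 with XAV939 and 5 instead of 2 untreated, and the day 5 to 6 change untreated 5 instead of 2; next-day libraries of an arm share only a number (correlations of deviations -0.098 to 0.635, over 0.1 in 26 of 32 pairs, and 48 of 64 times highest for the own number). With the replicate block within each day, the day 5 effect called 4 and the day 6 effect 1; this pairing changed no other call of a single day. In fits of the 8 libraries compared, the day 6 effect called 0 and the untreated day 4 to 5 change 1, and the counts of the day 5 to 6 change stayed the same with other genes called. Those fits called 0 of all 16878 genes for the XAV939 effect at each of the 5 days. They called 13.4% of all genes for the untreated day 4 to 5 change. Chosen after seeing the data, leaving out replicate 1 of every group gave 0 for the day 6 effect, 0 for the F test, 7 for the day 4 to 5 change with XAV939, 5 for that untreated and 0 for the day 5 to 6 change with XAV939, and together with the block within each day 5 for the day 5 effect and 4 for the F test. Without the block 1.49% of all genes were called for the day 6 effect and 1.37% by the F test. With the block 9.1% were called for the day 5 effect and 9.19% by the F test. Leaving out a library at a time, counts ran from 0 to 2 for the F test and for the day 6 effect, 2 to 4 and 1 to 6 for the day 4 to 5 change (XAV939 and untreated), 0 to 1 and 1 to 3 for day 5 to 6 (XAV939 and untreated) and 2 to 5 for day 6 to 7 with XAV939. Shares of all genes were not computed beside these counts. Depth limits Ascl2, with 0 to 39 counts per library from day 4 on, and Sp5 and Notum at days 3 and 7. The cause of these changes was not tested.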
